A study of Mus musculus with 6 samples.

Results

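The genes described here encode the subunits of the oxidative phosphorylation system, and they were read from 1 liver RNA-seq table of 53715 genes. A gene belonged if it is protein coding and its symbol matches the naming of the system, which is mt- for genes of the mitochondrial genome, Nduf for complex I, Sdh for complex II, Uqcr and Cyc1 for complex III, Cox4 to Cox8 for complex IV and Atp5 for complex V. This gave 98 genes, of which 13 lie on mitochondrial DNA and 85 in the nucleus, with 37 nuclear genes in complex I, 4 in complex II, 9 in complex III, 18 in complex IV and 17 in complex V. The symbol rule leaves out Ndufab1, and it places Ndufa4 with complex I although its protein is known as a subunit of complex IV.

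Livers were taken at 8 weeks of age from F1 males of ICR mice, which are outbred, and polyadenylated RNA was sequenced as 3 control F1 and 3 FR F1 libraries. The labels give the stress of the control group as control and that of the FR group as paternal famine, the series title speaks of a paternal overdiet, and FR is not spelled out, so the groups are named as in the labels. The fathers and not the sampled males are named as exposed, and no genetic change is given for either group. The labels do not say that replicates came from separate animals, so p-values measure the spread between these samples, which may be technical.

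The respiratory chain passes electrons from NADH through complex I, or from succinate through complex II, to coenzyme Q, complex III, cytochrome c and complex IV, where oxygen is reduced. Complexes I, III and IV pump protons across the inner mitochondrial membrane, and complex V, the ATP synthase, uses the gradient to make ATP. Every complex but II is built from products of both genomes, and hepatocytes depend on the system for gluconeogenesis, urea synthesis and fatty acid oxidation.

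Library totals ranged from 2279755 to 2730160 counts, and 13022 genes had enough counts to be tested. Positions are on mm10 with the GENCODE M21 annotation of that assembly. Correlations of log2 CPM (counts scaled to a common library size) between libraries were 0.869 to 0.965, and control replicate 3 had correlations of 0.869 to 0.933 with the others. The hepatocyte genes Alb and Cps1 stood at a mean of 912 and 961 CPM in control F1 livers. Most hepatocyte markers had many counts per base pair, and whether a limit on such counts lowers these levels was not tested. The summed level of 10 skeletal and heart muscle genes was 0.867 to 4.6 CPM in the control F1 libraries, and Mb was at 0 in all libraries. In whole liver RNA, fewer cells of a type and less RNA per cell cannot be told apart.

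No gene of the system passed an adjusted p under 0.05 between FR F1 and control F1 livers, with 0 of 87 tested members called (edgeR quasi-likelihood test, Benjamini-Hochberg adjusted over all genes tested, n = 3 per group, 2-sided). The share called over all 13022 genes was 0.837%, or 51 higher and 58 lower. The smallest adjusted p among the members was 0.165. At an unadjusted p under 0.05 there were 9 members, or 10.3%, all higher in FR F1 livers, where 17.9% of all tested genes had such a p. DESeq2 called 0 members as well. With no filter on low counts edgeR called 5 of 97 members, Uqcrb, mt-Atp8, mt-Nd2, mt-Nd5 and mt-Nd6, all higher. In that setting 1251 genes were called in all, out of the 53715 less the 22785 with 0 counts in every library. Most differences were narrowly bounded, since 56 of the 87 had a 95% interval of the log2 fold change that lay wholly within 1.5-fold in either direction, all of them nuclear encoded, and the same held for 25.2% of all genes tested.

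The 6 libraries did not separate the groups in most members. In 19 of 87 members (21.8%) every FR F1 library lay above every control F1 library, an arrangement found in 12.5% of all tested genes. mt-Atp8, which is among these 19 and among the 9 of unadjusted p under 0.05, reached the minimum count for testing only in FR F1 libraries. In 4 members, Ndufa10, Ndufv1, Cox4i1 and Atp5a1, every FR F1 library lay below, as in 13.2% of all tested genes. The log2 fold change was above 0 in 51 members and below 0 in 36, and over all tested genes its median was 0.000. Medians were 0.33 in the 9 tested genes of mitochondrial DNA and 0.03 in the 78 tested nuclear members. Among the nuclear members they were -0.02 in complex I, -0.05 in complex II, 0.11 in complex III, 0.16 in complex IV and 0.05 in complex V. Without control replicate 3 these 5 medians were -0.06, -0.04, 0.11, 0.05 and -0.02.

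**Figure D1:**
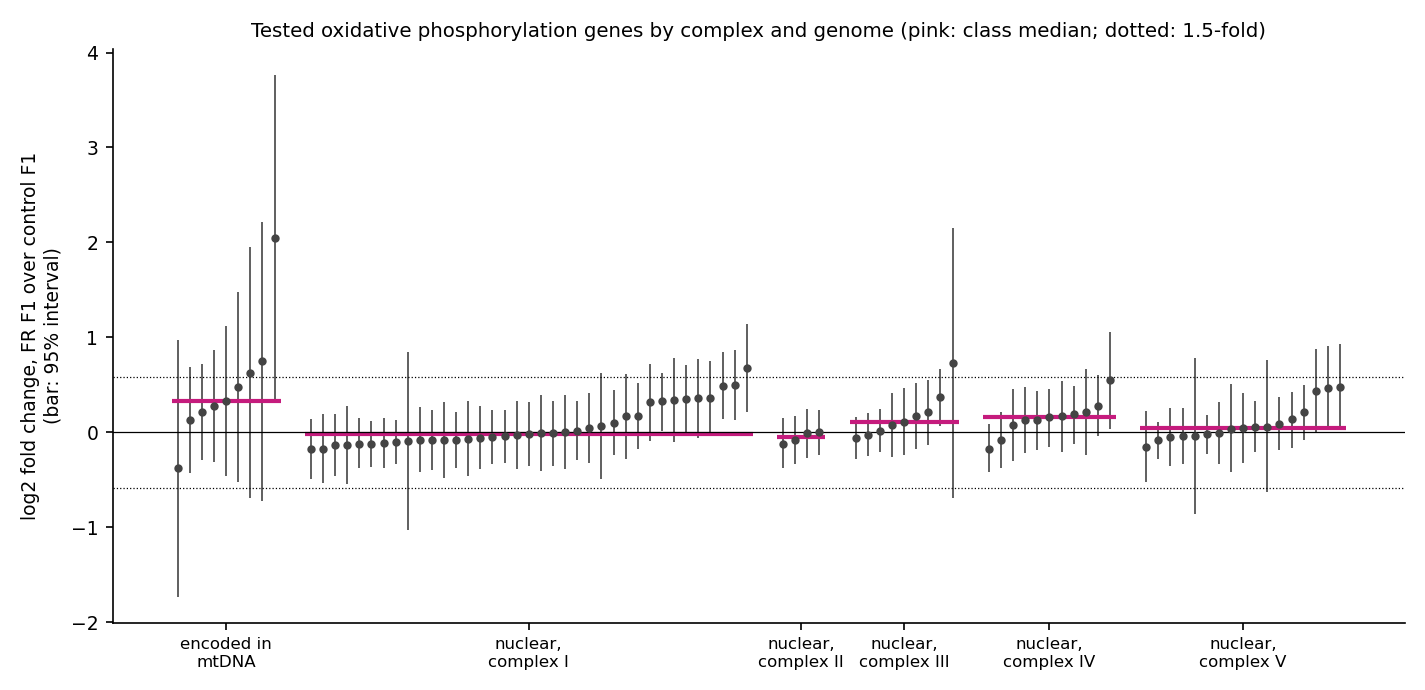
Log2 fold change of FR F1 over control F1 livers (vertical axis) for each of the 87 tested genes, ordered within the mitochondrial genome and the 5 complexes, with bars for 95% intervals, pink lines for class medians and dotted lines at 1.5-fold. Nuclear members lie close to 0, with 56 of 78 intervals inside the dotted lines, and the 9 genes of mitochondrial DNA, from mt-Atp6 at -0.38 to mt-Atp8 at 2.05, have 0 inside.

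The mitochondrial genome encodes 7 subunits of complex I, 1 of complex III, 3 of complex IV and 2 of complex V, and its genes were read out very unevenly. Summed over the 13 genes, the level was 2729, 2361 and 893 CPM in control replicates 1, 2 and 3 and 2578, 2544 and 2602 CPM in FR replicates 1, 2 and 3. The 3 FR F1 libraries and control replicates 1 and 2 lay close together and control replicate 3 lay far below them. The mean was 1994 ± 971 CPM in control and 2575 ± 29.3 CPM in FR F1 libraries (SD, n = 3), a ratio of 1.29 that became 1.01 without control replicate 3. The median log2 fold change of the 9 tested genes was -0.00 without that library. In the libraries where they were highest, mt-Nd5 and mt-Cytb reached 1.05 and 1.02 counts per base pair. Whether a limit on counts per base pair evened these sums between libraries was not tested.

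mt-Nd5, which encodes a proton-pumping subunit of complex I and had the most counts of the 13 (ENSMUSG00000064367.1, mitochondrial genome, 11742 to 13565), had 1677, 1369 and 433 counts in control replicates 1 to 3 and 1921, 1835 and 1728 in FR replicates 1 to 3. Only control replicate 3 was far from the rest. The log2 fold change of mt-Nd5 was 0.48 ± 0.43 (SE, edgeR adjusted p = 0.572), and 0.06 without control replicate 3. mt-Nd6, the one subunit gene on the minus strand (ENSMUSG00000064368.1, 13552 to 14070), had 305, 243 and 30 counts in control and 364, 397 and 347 in FR F1 libraries. Every FR F1 library of mt-Nd6 was above the highest control library, and control replicate 3 held far fewer counts than any other. Its log2 fold change was 0.75 ± 0.64 (edgeR adjusted p = 0.547), and 0.22 without control replicate 3. The ends of mt-Nd5 and mt-Nd6 overlap on opposite strands, and whether strand was used in counting is unknown.

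The other well counted genes of mitochondrial DNA had the same library lowest. mt-Cytb, the cytochrome b of complex III, had 1040, 907 and 529 counts in control and 1155, 1169 and 1040 in FR F1 libraries. mt-Co1, the catalytic subunit of complex IV, had 1183, 1095 and 649 against 1179, 1187 and 1203. mt-Nd2 of complex I had 823, 554 and 112 against 892, 916 and 802. Control replicate 3 was lowest in each of these 3 genes, and its distance from the rest differed between them. Set against the lowest of the other 5 libraries in TMM-normalised CPM, control replicate 3 stood at 0.569 of it for mt-Co1, 0.496 for mt-Cytb, 0.368 for mt-Nd1, 0.612 for mt-Nd4, 0.269 for mt-Nd5, 0.172 for mt-Nd2 and 0.105 for mt-Nd6. Control replicate 3 lay more than 3-fold below the lowest other library in 33.3% of the tested mitochondrially encoded members (3 of 9) and in 2.12% of all tested genes.

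RNAs of mitochondrial DNA that are no subunit genes had the same library apart. The 2 ribosomal RNA genes together stood at 729, 439 and 97 CPM in control and 683, 732 and 760 CPM in FR F1 libraries. The 22 transfer RNA genes together stood at 172, 95 and 7 CPM against 134, 145 and 142 CPM. Control replicate 3 was lowest in both sums and control replicate 2 was lower than control replicate 1. What set control replicate 3 apart was not tested.

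**Figure D2:**
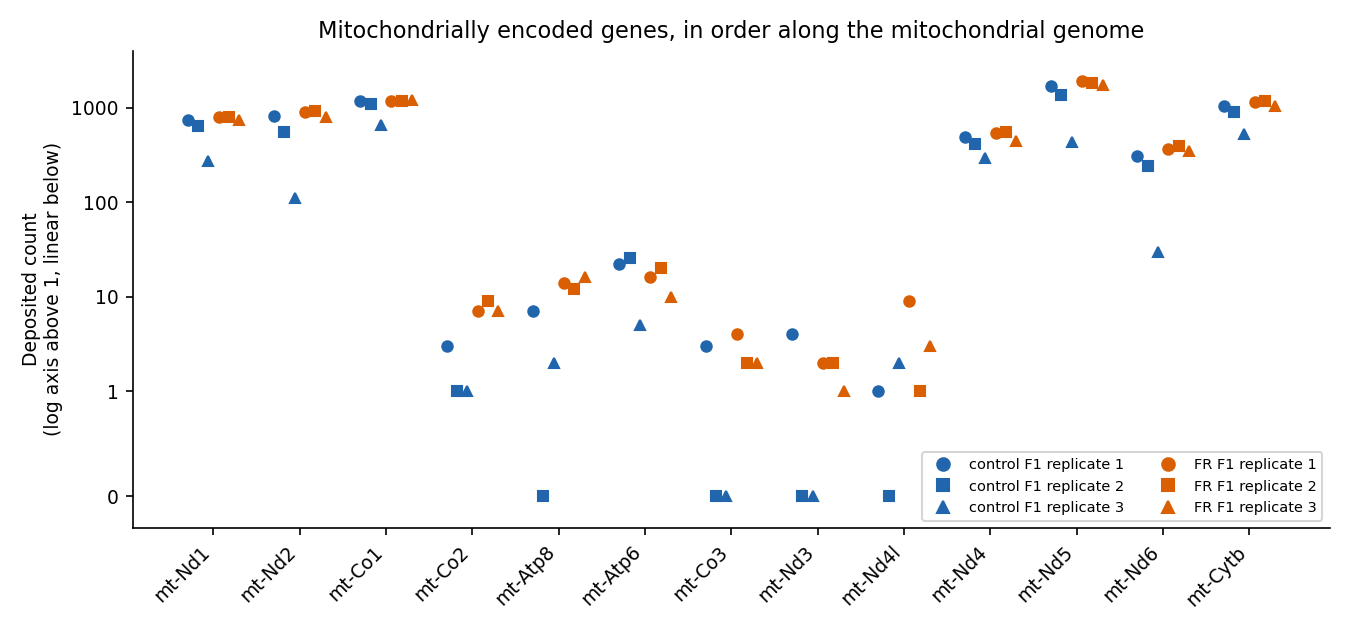
Deposited counts of the 13 genes of mitochondrial DNA in each of the 6 libraries, in genome order, on an axis that is logarithmic above 1 and linear below (blue, control F1; orange, FR F1; shapes, replicates 1 to 3). The 7 other genes hold 243 or more counts outside control replicate 3, which is lowest in each, and the run from mt-Co2 to mt-Nd4l holds at most 26 counts in any library.

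Per base pair of transcript, the 13 genes fell into 2 ranges. The highest value in any library was 1.05 counts per base pair for mt-Nd5, 1.02 for mt-Cytb, 0.88 for mt-Nd2, 0.83 for mt-Nd1, 0.78 for mt-Co1, 0.77 for mt-Nd6 and 0.41 for mt-Nd4. The other 6 genes were far lower, at 0.08 for mt-Atp8, 0.04 for mt-Atp6 and at most 0.03 for mt-Nd4l, mt-Co2, mt-Co3 and mt-Nd3. mt-Co2, which encodes the subunit of complex IV that accepts electrons from cytochrome c, follows mt-Co1 on the genome and had 3, 1 and 1 counts in control and 7, 9 and 7 in FR F1 libraries. mt-Co2, mt-Co3, mt-Nd3 and mt-Nd4l were under the minimum for testing. Over all genes, 319 reached 0.5 counts per base pair, and when counts were expanded to offset a possible limit on counts per base pair the median log2 fold change of the mitochondrial genes was 0.57, with 0 members called.

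Of the 6 genes with few counts, 5 have a near-complete copy among the annotated transcripts of nuclear genes. Of all 50 bp windows of the gene, 100% occur in a transcript of another annotated gene for mt-Co2, 99.9% for mt-Co3, 99.5% for mt-Atp6, 98.8% for mt-Nd4l and 98.0% for mt-Nd3. The share was 62.2% for mt-Nd4, 51.1% for mt-Co1, 8.19% for mt-Nd2, 7.61% for mt-Nd5 and 0 for mt-Cytb, mt-Nd1, mt-Nd6 and mt-Atp8. The copies of 7 of these genes stand next to each other as pseudogenes on chromosome 1. mt-Atp8 had few counts but no window in an annotated transcript, with 7, 0 and 2 counts in control against 14, 12 and 16 in FR F1 libraries. It lies between mt-Co2 and mt-Atp6, whose chromosome 1 copies start at 24614885 and end at 24614651. The bases between these copies belong to neither and were not searched, so a copy of mt-Atp8 there would not be seen. Its 204 bp overlap mt-Atp6 at one end.

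The start of mt-Nd3 and of its pseudogene Gm28438 shows how close the copies are. Both stretches are 90 bases long, read on the coding strand from the first base of the gene and taken from GENCODE M21 transcripts (mm10, chrM:9459-9548 on the plus strand and chr1:24613030-24613119 on the minus strand). The capital marks the one base that differs over the whole 345 bases that align, T3C, with positions counted from 1 at the first base of mt-Nd3.
mt-Nd3: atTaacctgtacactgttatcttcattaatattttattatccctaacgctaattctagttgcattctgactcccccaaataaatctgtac
Gm28438: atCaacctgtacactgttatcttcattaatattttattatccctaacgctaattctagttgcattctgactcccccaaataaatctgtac
Within the printed stretch, the bases after that position are the same in both. mt-Nd3 had 4, 0 and 0 counts in control and 2, 2 and 1 in FR F1 libraries, and Gm28438 had 97, 0 and 0 in control and 49, 54 and 43 in FR F1 libraries. The pseudogene thus held more counts than the gene in the 4 libraries where either had more than 0.

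The 7 copies on chromosome 1 together held 126, 5 and 2 counts in control and 84, 75 and 62 in FR F1 libraries. Control replicates 2 and 3 were at or near 0 and control replicate 1 was the highest of the 6. In every library this sum was below the count of each of the 7 well counted genes. No source used here says how reads that match several places were treated. The counts of the 5 genes with near-complete annotated copies and of mt-Co1 and mt-Nd4 are therefore uncertain as levels. For mt-Atp8 a copy outside annotated transcripts was not searched, so its counts are uncertain too.

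**Figure D3:**
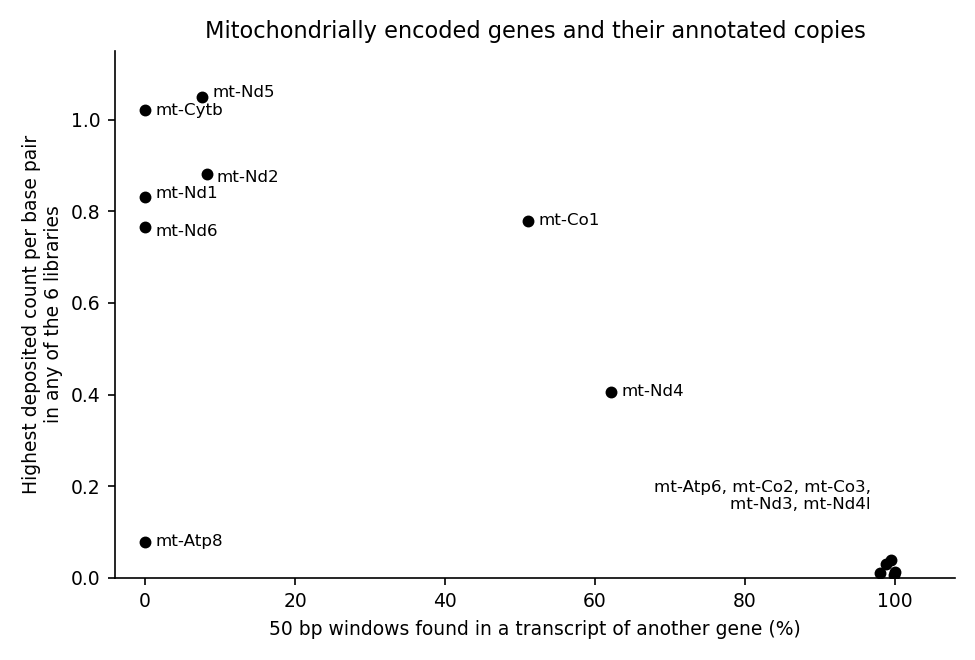
Highest deposited count per base pair in any library (vertical axis) against the share of 50 bp windows found in a transcript of another gene (horizontal axis, %) for the 13 genes of mitochondrial DNA. The 5 genes with 98.0% or more shared windows lie at the bottom right and the genes with under 10% lie between 0.77 and 1.05 except for mt-Atp8 at 0.08.

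mt-Atp8 had the largest log2 fold change of all members, at 2.05 ± 0.74 (SE, edgeR adjusted p = 0.216, 95% interval 0.34 to 3.76). It encodes a small membrane subunit of the ATP synthase (ENSMUSG00000064356.3, mitochondrial genome, 7766 to 7969). Whether mt-Atp8 has a nuclear copy outside annotated transcripts was not searched. Its log2 fold change rests on at most 16 counts in a library, and every FR F1 library was above every control F1 library. Only the FR F1 libraries of mt-Atp8 reached the minimum count of 10. It was thus tested only because it was high there, and its fold change and lack of overlap cannot serve as support for a difference. Without control replicate 1 it was 3.56 (edgeR adjusted p = 0.0497, range over the alternatives 0.0302 to 0.456).

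The nuclear members as a whole stood at 9760, 9447 and 8786 CPM in control and 9137, 9626 and 10026 CPM in FR F1 libraries. These sums overlapped, at a mean of 9331 ± 498 CPM in control and 9597 ± 445 CPM in FR F1 libraries (SD, n = 3), a ratio of 1.03. By complex the ratio was 1.01 for complex I, 0.97 for complex II, 1.08 for complex III, 1.09 for complex IV and 1.03 for complex V. Without control replicate 3 these 5 ratios lay between 0.97 and 1.04. Control replicate 3 was the lowest library in the sums of complexes III, IV and V.

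**Figure D4:**
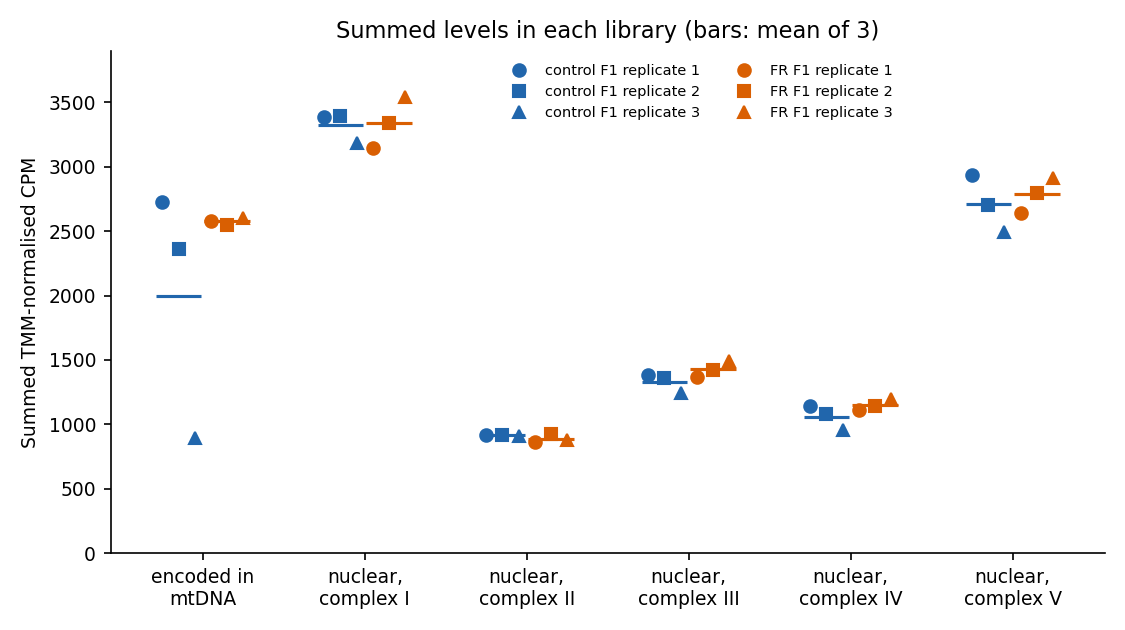
Summed TMM-normalised CPM of the genes of mitochondrial DNA and of the nuclear members of each complex in the 6 libraries (blue, control F1; orange, FR F1; shapes, replicates; bars, mean of 3). Each nuclear sum spans a narrow range, while the mitochondrial sum of control replicate 3 lies at 893 CPM against 2361 to 2729 CPM in the other 5 libraries.

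Complex I, the NADH dehydrogenase, gave no called member among 37, with 16 log2 fold changes above 0 and 21 below. The 7 nuclear core subunits, most of which carry the flavin or iron-sulphur clusters, all lay slightly below 0, from -0.18 to -0.02 with a median of -0.10, and all 7 intervals were within 1.5-fold. Ndufv1, the flavin-binding subunit, had 241, 233 and 244 CPM against 213, 228 and 230 CPM, with no overlap and a log2 fold change of -0.10 ± 0.10 (edgeR adjusted p = 0.615). The 28 accessory subunits, Ndufa4 and Ndufa4l2 aside, had a median of 0.01 and spread wider, from -0.17 to 0.68.

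Ndufc1, a small accessory subunit of the membrane arm (ENSMUSG00000037152.11, chromosome 3, 51404677 to 51408988), had the smallest p of all members. It stood at 36.9, 32.5 and 26.1 CPM in control and 42.6, 52.3 and 57.4 CPM in FR F1 libraries. Every FR F1 library was above every control F1 library, and the log2 fold change was 0.68 ± 0.20 (edgeR adjusted p = 0.165). Ndufs6, a zinc-binding accessory subunit (ENSMUSG00000021606.8, chromosome 13, 73319838 to 73328542), stood at 55.9, 49.1 and 44.9 CPM in control and 68.8, 68.5 and 73.9 CPM in FR F1 libraries. Its groups did not overlap either, and the log2 fold change was 0.49 ± 0.15 (edgeR adjusted p = 0.173). Over all alternatives the log2 fold change stayed between 0.55 and 0.80 for Ndufc1 and between 0.42 and 0.58 for Ndufs6, and neither passed in any.

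The other accessory subunits of complex I whose FR F1 libraries lay wholly above the control F1 libraries were Ndufa1, Ndufb4, Ndufb6, Ndufs5 and, by symbol, Ndufa4. Their log2 fold changes were 0.33 to 0.50. Ndufa1, the smallest by transcript length among the members of complex I, stood at 35.6, 32.5 and 30.7 CPM in control and 48.6, 46.1 and 45.1 CPM in FR F1 libraries. Each group was tight and the gap between them was wider than either, with an edgeR adjusted p of 0.181. Ndufb4, Ndufb6 and Ndufs5 share 37.0%, 34.1% and 31.1% of their 50 bp windows with other annotated genes, so their counts are uncertain to that extent.

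Complex II, the succinate dehydrogenase, is wholly nuclear, and its 4 log2 fold changes lay between -0.12 and 0.00. Sdha, its flavoprotein subunit (ENSMUSG00000021577.14, chromosome 13, 74322254 to 74350280), stood at 367, 361 and 370 CPM in control and 337, 407 and 357 CPM in FR F1 libraries. The FR F1 values surrounded the control values, and the log2 fold change was 0.00 ± 0.10 (edgeR adjusted p = 0.986, 95% interval -0.24 to 0.24). Sdhc and Sdhd, the membrane anchors, had log2 fold changes of -0.12 ± 0.11 and -0.08 ± 0.11, and all 4 intervals of the complex lay within 1.5-fold.

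Complex III, the cytochrome bc1 complex, had 7 of 9 log2 fold changes above 0. Uqcrfs1, the Rieske iron-sulphur protein (ENSMUSG00000038462.3, chromosome 13, 30540308 to 30545362), stood at 186, 153 and 146 CPM in control and 198, 209 and 220 CPM in FR F1 libraries. The groups did not overlap but control replicate 1 lay close to FR replicate 1, and the log2 fold change was 0.37 ± 0.13 (edgeR adjusted p = 0.209). Uqcrc1, a core protein of the matrix side with the highest mean CPM of the complex, had a mean of 310 ± 9.76 CPM in control and 297 ± 13.4 CPM in FR F1 libraries (SD, n = 3), with a log2 fold change of -0.06 ± 0.10. Uqcrq, a small membrane subunit, had 0.21 ± 0.15 (edgeR adjusted p = 0.463).

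Uqcrb, a small matrix-side subunit named here after its values were seen, was the one nuclear member of 78 in which control replicate 3 lay more than 3-fold below the lowest other library. It had 171, 157 and 19 counts in control and 207, 229 and 217 in FR F1 libraries. Its log2 fold change was 0.73 ± 0.62 (edgeR adjusted p = 0.545), and 0.20 without control replicate 3. Of its 50 bp windows, 19.2% occur in another gene, chiefly Gm16089.

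Complex IV, the cytochrome c oxidase, had 9 of 11 tested members above 0 and a median of 0.16, which was 0.05 without control replicate 3. Cox5a, a matrix-side subunit (ENSMUSG00000000088.7, chromosome 9, 57521274 to 57532426), stood at 110, 78.0 and 59.5 CPM in control and 112, 129 and 120 CPM in FR F1 libraries. Control replicate 1 was almost level with FR replicate 1, and the log2 fold change was 0.55 ± 0.22 (edgeR adjusted p = 0.251). Without control replicate 1 it was 0.81 (edgeR adjusted p = 0.0463, range over the alternatives 0.0463 to 0.477), and 0.35 without control replicate 3. Cox7a2, a membrane subunit, had 70.2, 64.9 and 61.8 CPM against 83.0, 81.1 and 75.5 CPM, with no overlap and a log2 fold change of 0.28 ± 0.14 (edgeR adjusted p = 0.323).

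Complex IV is also where subunits come in tissue forms, and the counts of these livers lay almost wholly in the common forms. Cox4i1, the main form of subunit 4 (ENSMUSG00000031818.12, chromosome 8, 120668222 to 120674207), had 419, 425 and 486 counts in control and 447, 422 and 428 in FR F1 libraries. Cox4i2, best known from lung, had 1, 2 and 0 counts in control and 1, 0 and 1 in FR F1 libraries. The same contrast held for the liver and heart forms of other subunits. Cox6a1 had 228 to 308 counts in every library and Cox6a2, its heart and muscle form, 0 or 1. Cox7a2 had 144 to 222 and Cox7a1, its heart and muscle form, 1 or 2. Cox8a had 208 to 261 and Cox8b, its heart and muscle form, 0 or 1. Per kilobase of principal transcript, the mean level in control F1 livers was 244 CPM for Cox4i1 and 0.607 for Cox4i2, 179 for Cox6a1 and 0.433 for Cox6a2, and 99.6 for Cox7a2 and 1.40 for Cox7a1.

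The testis forms Cox6b2, Cox7b2 and Cox8c had at most 3, 1 and 0 counts in any library. These 7 forms account for all nuclear members that could not be tested. Between groups, Cox6a1 had a log2 fold change of 0.19 ± 0.13 (edgeR adjusted p = 0.468), Cox8a one of 0.13 ± 0.14 (edgeR adjusted p = 0.633) and Cox4i1 one of -0.17 ± 0.11 (edgeR adjusted p = 0.445). In Cox4i1 every FR F1 library was below every control F1 library on the CPM scale, at 167, 156 and 176 against 182, 192 and 186 CPM. Cox4i1 shares 14.7% of its windows with its neighbour Emc8.

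Ndufa4 and its relative Ndufa4l2, known as a hypoxia-induced gene, were a further pair. Ndufa4 (ENSMUSG00000029632.7, chromosome 6, 11900292 to 11907497) stood at 79.4, 79.3 and 71.3 CPM in control and 93.1, 96.9 and 98.9 CPM in FR F1 libraries. Its groups were apart, with a log2 fold change of 0.33 ± 0.13 (edgeR adjusted p = 0.252). Ndufa4l2 stood at 5.64, 8.11 and 9.97 CPM against 8.97, 4.05 and 9.44 CPM. Its groups overlapped, and the log2 fold change of -0.09 ± 0.41 (edgeR adjusted p = 0.923) has a wide 95% interval, from -1.03 to 0.85.

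Complex V, the ATP synthase, held the nuclear member with the highest mean CPM. Atp5a1, the alpha subunit of the catalytic head (ENSMUSG00000025428.15, chromosome 18, 77773729 to 77782869), stood at 568, 548 and 541 CPM in control and 495, 538 and 530 CPM in FR F1 libraries. The FR F1 libraries were just below, and the log2 fold change was -0.08 ± 0.09 (edgeR adjusted p = 0.613). Atp5b, the catalytic beta subunit, had a mean of 492 CPM in control and 485 CPM in FR F1 libraries.

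The members of complex V with the smallest p were Atp5k and Atp5j. Atp5k, the e subunit of the membrane part (ENSMUSG00000050856.16, chromosome 5, 108433244 to 108434448), stood at 25.1, 21.6 and 20.7 CPM in control and 30.3, 30.6 and 32.8 CPM in FR F1 libraries. Its groups were apart, with a log2 fold change of 0.47 ± 0.19 (edgeR adjusted p = 0.250). Atp5j, which encodes coupling factor 6 of the stalk (ENSMUSG00000022890.13, chromosome 16, 84827866 to 84835625), stood at 133, 96.5 and 82.1 CPM against 130, 146 and 160 CPM. Control replicate 1 lay above FR replicate 1, and the log2 fold change was 0.48 ± 0.19 (edgeR adjusted p = 0.250). Atp5j lies head to head with Gabpa, and 20.2% of its windows occur in other genes, chiefly Gabpa.

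The members nearest to the threshold are mostly short, so the fold changes were laid out by the length of the principal transcript. The median log2 fold change of the nuclear members was 0.17 under 600 bp (17 tested), 0.13 from 600 bp up to 1000 bp (28), -0.02 from 1000 bp up to 1500 bp (14) and -0.03 at 1500 bp or more (19). The other tested genes of the same lengths had medians of 0.15, 0.03, -0.01 and 0.00. Short members thus stood above long ones, and under 600 bp so did other short genes. Without control replicate 3 the members' medians were 0.11, 0.03, -0.04 and -0.09 and those of the other genes 0.12, 0.02, -0.02 and 0.00. The part of transcript length in the values of single members was not tested.

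**Figure D5:**
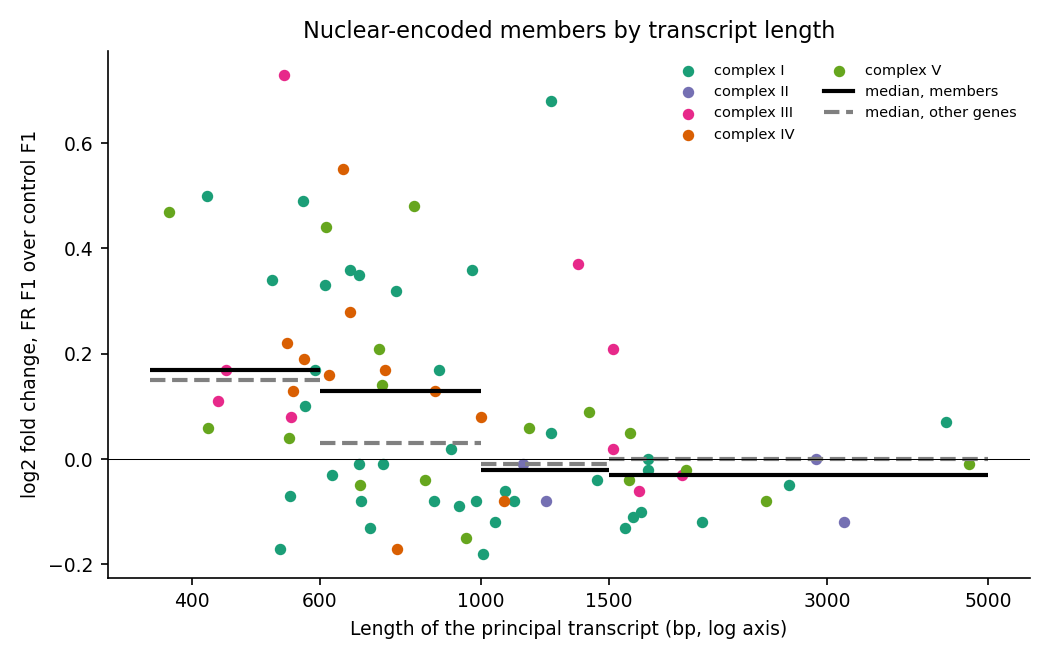
Log2 fold change of FR F1 over control F1 livers (vertical axis) against the length of the principal transcript (horizontal axis, bp, logarithmic) for the 78 tested nuclear members, coloured by complex, with medians of the members (solid) and of other tested genes (dashed) in 4 length ranges. Both medians are highest under 600 bp, at 0.17 for the members and 0.15 for other genes, and the members' medians lie below 0 from 1000 bp on.

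Promoters of nuclear respiratory genes are known to be bound by NRF1, by the ETS factor GABP, by YY1 and by the oestrogen-related receptors, and 3 member promoters are printed to show such letters in place. Each is the 300 bases from 250 before to 50 after an annotated start, from the RefSeq table of GRCm38.p6, written on the gene's own strand. Capitals mark matches, on either strand, to CCGGAAG (ETS core, reverse CTTCCGG), GCGCATGC (NRF1 core, reverse GCATGCGC), ATGGCGG (YY1 core, reverse CCGCCAT) or AAGGTCA (core of the oestrogen-related receptor site, reverse TGACCTT). Ndufs6 is shown as the nuclear member of smallest p whose window holds a match, and Atp5k and Atp5l as the windows with most kinds of match. The windows are chr13:73328433-73328732, chr5:108434350-108434649 and chr9:44920693-44920992, all on the minus strand.
Ndufs6: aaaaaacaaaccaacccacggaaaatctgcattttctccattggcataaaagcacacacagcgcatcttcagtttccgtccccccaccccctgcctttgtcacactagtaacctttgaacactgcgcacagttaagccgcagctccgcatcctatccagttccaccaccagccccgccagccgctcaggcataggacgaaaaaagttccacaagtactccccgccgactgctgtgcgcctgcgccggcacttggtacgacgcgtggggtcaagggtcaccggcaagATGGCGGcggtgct
Atp5k: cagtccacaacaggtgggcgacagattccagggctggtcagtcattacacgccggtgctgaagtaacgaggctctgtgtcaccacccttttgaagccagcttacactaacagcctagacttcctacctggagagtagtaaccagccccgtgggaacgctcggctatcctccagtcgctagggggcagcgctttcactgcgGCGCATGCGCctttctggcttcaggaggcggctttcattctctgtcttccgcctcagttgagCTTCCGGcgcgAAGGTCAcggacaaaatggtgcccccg
Atp5l: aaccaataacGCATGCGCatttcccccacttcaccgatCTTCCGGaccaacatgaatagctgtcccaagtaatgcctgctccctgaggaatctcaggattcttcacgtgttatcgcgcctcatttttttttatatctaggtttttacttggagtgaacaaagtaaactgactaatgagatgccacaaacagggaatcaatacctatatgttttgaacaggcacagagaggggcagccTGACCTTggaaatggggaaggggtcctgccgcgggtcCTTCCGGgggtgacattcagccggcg
Ndufs6 holds 1 match, to the YY1 core, just past its start. Atp5k holds 4, with the 2 NRF1 matches overlapping as one palindrome followed by an ETS and a receptor match near the start. Atp5l holds 4, and 2 of them are ETS cores. The 3 were chosen after the matches were seen.

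Of the 85 nuclear members 66 were found in the table, with 71 windows. An ETS core stood in 22.5% of member windows and in 8.86% of all 32851 windows of this length in the table. The NRF1 core stood in 14.1% against 2.71%, the YY1 core in 15.5% against 4.05% and the receptor core in 11.3% against 4.72%. At least 1 of the 4 stood in 49.3% of member windows and in 18.4% of all windows. The median log2 fold change was 0.07 with and 0.03 without an ETS core, 0.09 and 0.05 for NRF1, -0.01 and 0.06 for YY1, and 0.14 and 0.01 for the receptor core. These are descriptions of letters and not of binding.

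Of the 12 pathway lists, 1 gene passed in the edgeR test, a regulator of mitochondrial biogenesis. Pprc1, a coactivator of the PGC-1 family (ENSMUSG00000055491.13, chromosome 19, 46044886 to 46072915), stood at 53.8, 66.7 and 62.5 CPM in control and 20.9, 15.1 and 29.5 CPM in FR F1 libraries. Every FR F1 library was below every control F1 library, and Pprc1 was lower by a log2 fold change of -1.48 ± 0.25 (edgeR adjusted p = 0.0463, range over the alternatives 6.73e-07 to 0.206). It did not pass without control replicate 2 (adjusted p = 0.17) or without FR replicate 1, 2 or 3 (0.206, 0.172 and 0.0539). Of the 10 biogenesis regulators listed, this 1 was lower, 0 were higher and 9 did not pass. The log2 fold change was above 0 in 4 of the 10. Without control replicate 1, Gabpa at 0.76 (edgeR adjusted p = 0.0309) and Sirt1 at 1.35 (edgeR adjusted p = 0.0288) passed as higher. Pprc1 and Ppargc1b passed as lower there, among 651 genes called in all. Ppargc1b, a further coactivator gene of the family, had a log2 fold change of -1.57 ± 0.35 (edgeR adjusted p = 0.0894) with groups that did not overlap, and an adjusted p of 0.0106 with DESeq2.

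The better known coactivator gene Ppargc1a had a log2 fold change of -0.65 ± 0.42 (edgeR adjusted p = 0.437), with 33.0, 19.4 and 14.2 CPM in control and 7.48, 17.7 and 17.2 CPM in FR F1 libraries, which overlap. The transcription factor genes Nrf1 and Esrra had -0.39 ± 0.26 and -0.44 ± 0.20, and Tfam, which packages mitochondrial DNA and starts its transcription, had -0.12 ± 0.15. None of these 4 passed.

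The other pathway lists gave no call with edgeR, and DESeq2 called 3 of their genes, named below. Over the whole table DESeq2 called 457 genes and edgeR without a filter 1251. In the citric acid cycle, which feeds NADH and succinate to it, 0 of 14 passed (4 lower at an unadjusted p under 0.05), 1 log2 fold change was above 0 and the median was -0.12. Their summed level was 3079 to 3114 CPM in control and 2592 to 2859 CPM in FR F1 libraries, all FR F1 sums being lower. Of single genes 13.2% had this arrangement, and how often sums over lists of genes have it was not computed. In the expression of mitochondrial DNA, 0 of 28 passed (4 lower at an unadjusted p under 0.05), the median was -0.12 and the sums were 2264 to 2359 against 1953 to 2105 CPM, in the same arrangement. In these libraries markers of endothelium and stellate cells had medians of 0.90 and 0.77 and hepatocyte markers one of -0.14, and their part in both sums was not tested. The smallest p in that list was that of Tbrg4, a factor for mitochondrial RNA, at -0.52 ± 0.14 (edgeR adjusted p = 0.138).

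Coenzyme Q synthesis had 0 of 13 called with edgeR (1 higher and 3 lower at an unadjusted p under 0.05) and a median of -0.14. Coq8a, an atypical kinase of that pathway, had 0.48 ± 0.12 (edgeR adjusted p = 0.106). It passed with DESeq2 (adjusted p = 0.0429) and with edgeR without a filter (adjusted p = 0.0227). Coq10b of the same list went lower, at -1.30 with edgeR without a filter (adjusted p = 7.03e-06). Without control replicate 3 Coq10b was at -1.75 (edgeR adjusted p = 0.0414). Mitochondrial ribosomal proteins had 0 of 77 called with edgeR (2 higher and 1 lower at an unadjusted p under 0.05) and a median of -0.03. Mrps24 had 0.74 ± 0.18 (edgeR adjusted p = 0.107) and passed with DESeq2 (adjusted p = 0.0442) and with edgeR without a filter (adjusted p = 0.0409). Electron carriers and ADP exchange had 0 of 11 called (0 at an unadjusted p under 0.05) and a median of 0.08, and cytochrome c, Cycs, stood at 0.47 ± 0.23 (edgeR adjusted p = 0.313). Import, porins and chaperones had 0 of 14 called (1 lower at an unadjusted p under 0.05), a median of -0.06 and Tomm40 at -0.40 ± 0.15 (edgeR adjusted p = 0.223).

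Assembly factors, which help to build the complexes, had 0 called with edgeR in each list, with 16 tested for complex I, 4 for complex II, 5 for complex III, 20 for complex IV and 4 for complex V. Their medians were 0.02, 0.22, -0.06, -0.03 and 0.05, and 3, 1, 0, 2 and 0 of them had an unadjusted p under 0.05. Foxred1, a complex I assembly factor, had -0.69 ± 0.15 (edgeR adjusted p = 0.0882) and passed with DESeq2 (adjusted p = 0.0239) and with edgeR without a filter (adjusted p = 0.0214). The complex I list also holds Ndufab1, the acyl carrier protein that is itself a subunit, at 0.61 ± 0.21 (edgeR adjusted p = 0.207, and 0.0498 without a filter or 0.0385 without control replicate 1). Sdhaf3, Uqcc2, Cox19 and Tmem70 had the smallest p in the other 4 lists, at 0.66 ± 0.27, 0.41 ± 0.20, -0.34 ± 0.13 and 0.53 ± 0.27. In the complex IV list Cox20 passed with edgeR without a filter, at 0.79 (adjusted p = 0.00431).

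Markers of the cells that a liver sample can hold were read in the same libraries, and with edgeR 1 of them passed. The 12 sinusoidal endothelium markers were all above 0, with a median log2 fold change of 0.90. Of these, 0 were called by edgeR, 5 by DESeq2 and 9 had an unadjusted p under 0.05. Over all 13022 tested genes 17.9% had such an edgeR p, and DESeq2 called 457 genes. The summed level of the endothelium markers was 517 to 775 CPM in control and 928 to 1100 CPM in FR F1 libraries. The 12 stellate cell and fibroblast markers were all above 0 too, with a median of 0.77 and sums of 400 to 621 against 884 to 1056 CPM, with Pdgfra called at 1.53 ± 0.26 (edgeR adjusted p = 0.0456) and 4 called by DESeq2. The 12 Kupffer cell markers had a median of 0.42 (376 to 755 against 486 to 959 CPM) and 5 B cell markers one of 0.94 (67.6 to 208 against 183 to 340 CPM). The 2 cholangiocyte markers had one of 0.39 (43.3 to 138 against 71.4 to 95.2 CPM). The 4 erythroid markers had one of 0.41 (179 to 407 against 409 to 469 CPM), with 3 above 0. At an unadjusted p under 0.05, 1 erythroid marker was higher and 1 lower. Without a filter Alas2 was at 0.98 and Hbb-bt at -1.45, so the erythroid markers went both ways. The 10 hepatocyte markers had a median of -0.14, with sums of 5178 to 6130 against 4810 to 5459 CPM. At an unadjusted p under 0.05, 3 of them were lower and 0 higher. With genes at 0.5 counts per base pair or more left out, 3 of these 10 were still tested. Whether a limit on counts per base pair bears on the hepatocyte values was not tested. No T cell marker was tested (3.61 to 14.7 against 13.5 to 22.2 CPM in sum), 1 fat marker was tested at 1.30 (5.41 to 13 against 18.5 to 22.1 CPM in sum, with Cidea at 0 in all), and the muscle sum was 1.5 to 2.05 CPM in FR F1 libraries. The part of cell makeup in the values of the members was not tested.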

How the data were processed

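Polyadenylated liver RNA of 3 control F1 and 3 FR F1 samples was described by 1 table of whole-number counts per gene, deposited by the authors and used as raw counts. Per the submitters' processing notes, STAR, StringTie, HTSeq, DESeq2 and mm10 were used, with no versions or roles. No source used here gives the strand setting, the treatment of reads matching several places or any removal of duplicates. Per the labels' protocols, RNA was extracted with Trizol and the library kit is a TruSeq kit for DNA. Of 53715 gene IDs, 53620 were matched to GENCODE M21 for symbols, positions and lengths; 22785 genes had 0 counts in all libraries.

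The test used edgeR 4.0.16 under R 4.3.3. filterByExpr (minimum count 10, minimum total 15) left 13022 genes, TMM factors were applied, and a quasi-likelihood F test compared the groups, 2-sided, with Benjamini-Hochberg adjustment over all genes tested. The common dispersion of 0.05 is a coefficient of variation of 22.4% between replicates. CPM are TMM-normalised over tested genes, and intervals and errors of log2 fold changes come from the same fit. The edgeR script was tested on simulated data. Replicates within a group differed beyond counting noise (chi-square per degree of freedom 4.01 to 13.4) and all 6 were kept as separate samples.

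The members and the gene lists were chosen with earlier results of these data known. Named genes were, in each of 6 classes, the 2 tested members of smallest p and the one of highest mean CPM, the isoform pairs, the called gene or the one of smallest p of each pathway list, and 5 regulators and carriers by name. Results of some of the genes this rule names are left out of the text. Other genes named with values fell outside this rule and were chosen after their values were seen. Core and accessory subunits and the length ranges were also laid out after the data were seen. Shared sequence was measured as 50 bp windows of a gene's longest transcript found in transcripts of other genes on either strand. There were 16 alternatives: DESeq2 1.42.0, limma-voom (limma 3.58.1), 3 other scalings, no filter, each library left out, a replicate block, mitochondrial genes left out, and 2 that address genes of many counts per base pair.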

Additional observations from a re-analysis of the deposited data

How the results depend on the processing

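No member was called under 14 of the 16 alternatives. Without a filter on low counts 5 of 97 members were called higher (Uqcrb, mt-Atp8, mt-Nd2, mt-Nd5 and mt-Nd6). In that setting 1251 genes were called in all, out of the 53715 less the 22785 with 0 counts in every library. Leaving out 1 library gave 0 to 2 members higher, the 2 being Cox5a and mt-Atp8 without control replicate 1, and 7 to 651 genes changed. DESeq2 gave 457 genes and 0 members. The groups share replicate numbers, and the labels do not say whether these pair the samples. Deviations from the group mean correlated at -0.0173, 0.108 and 0.153 in same-numbered libraries and at -0.221 to 0.155 in the others. Such values from 3 libraries per group cannot settle a pairing. With the replicate block 21 genes changed and 0 members, and Pprc1 had an edgeR adjusted p of 0.0922. The median log2 fold change of the mitochondrial genes ranged from -0.00 (without control replicate 3) to 0.61 (without control replicate 1), and was 0.51 with limma-voom; that of the nuclear members ranged from -0.01 to 0.09.

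Of 617 values of 39 named genes, 593 kept direction and side of the threshold, 7 reversed, 5 lost a call and 12 gained one. The reversals were of values near 0. Sdha was -0.00 with limma-voom and with the replicate block, -0.01 without a filter, and -0.08 to 0.07 when 1 library was left out. When 1 library was left out Ndufa4l2 ranged from -0.28 to 0.21, and it was 0.12 without control replicate 3. The cause of these shifts was not tested. With so few counts, differences in mt-Co2, mt-Co3, mt-Nd3, mt-Nd4l and the 7 rare complex IV forms could not be tested. For the mitochondrial genes among these the counts are also uncertain because of their annotated copies, and whether depth is the limit was not tested. An interval wholly within 1.5-fold was found for 0 of the 9 tested mitochondrial genes and for 56 of the 78 tested nuclear members. Among those with wider intervals were mt-Atp8, mt-Atp6, mt-Nd2, mt-Nd5, mt-Nd6, Uqcrb and Ndufa4l2.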
